A study of Arabidopsis thaliana with 4 samples.

Results

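TA plates 29-36 are a stretch of 746 tiles of an Arabidopsis thaliana tiling array that lies, in the order of the tile IDs, between runs of plates with low H3K56ac ChIP ratios, TA plates 21-28 and TA plates 37-51. A tile is a spot of DNA on the array. A tile ID holds a series (TA), a plate number, a row letter from A to H and a column number, and the ID order used below runs through plates, then rows, then columns. Every TA tile of plates 29 to 36 with a value on all arrays was a member, which makes 746 of the 21707 tiles with a value. The stretch was picked from plate medians of the same ratios that are described below. Its plates are those whose median stayed above −0.4 log units between low plates on either side, on the mean of both preparations. Its levels are therefore a description, and no test is given for them. It was set against 713 tiles of TA plates 21-28, 1351 tiles of TA plates 37-51 and 1912 tiles of TA plates 1-20, the plates ahead of the first low stretch.

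The material was chromatin of whole seedlings of the Col-0 ecotype, labelled as 10 days old and untreated, grown in liquid MS medium at 0.5X strength and 22 °C with 16 hours of light a day. Chromatin was immunoprecipitated with an antibody to H3K56Ac. The immunoprecipitated (IP) DNA and the input DNA, which is chromatin that did not go through the antibody, were labelled with different dyes and hybridised to the same array. There were 2 preparations, I and II, called replicates 1 and 2 here, and each was hybridised to 2 arrays with the dyes exchanged. No other genotype, treatment or tissue was part of the comparison, and a whole seedling averages over all its cell types.

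Histone H3 is one of the core proteins around which DNA is wound in the nucleosome, and its lysine 56 sits near the place where DNA enters and leaves the particle. In budding yeast, acetylation of this lysine marks newly made H3 that is laid down behind the replication fork and at promoters where nucleosomes are exchanged. In plants the mark is mostly known from transcribed genes. Chromosomes alternate between gene-rich arms and repeat-rich heterochromatin around the centromere, where histone acetylation is usually low. The files used here give the tiles no coordinates, genes or sequences, so where TA plates 29-36 lie in the genome, and whether consecutive IDs are neighbours on a chromosome, was not determined.

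Each deposited value is a log ratio of the IP and input channels for which neither the labels nor the table state the log base or the direction. "Higher" therefore means a higher deposited ratio, which is not settled as more H3K56ac. The arrays of each dye-swap pair carried identical values, so each preparation counted as 1 sample and n = 2 throughout. The median over all 21707 tiles was subtracted in each replicate, and all levels are in log units from that array median. The replicates ran the same way in TA plates 29-36, with r = 0.913 (Pearson) and rho = 0.871 (Spearman) across the 746 tiles, which are not independent. Over these tiles replicate 1 minus replicate 2 varied with an SD of 0.248 log units, and 96 of them (12.9%) lay on opposite sides of the array median in the 2 replicates.

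The level of TA plates 29-36 lay between those of its low neighbours and that of the plates ahead of them. The median tile was at −0.17 log units in replicate 1 and −0.13 in replicate 2, a mean of −0.15 ± 0.0282 (SD, n = 2). It was −0.58 ± 0.0687 in TA plates 21-28, −0.71 ± 0.0380 in TA plates 37-51 and 0.12 ± 0.00889 in TA plates 1-20. The stretch thus stood 0.44 ± 0.0404 above TA plates 21-28, 0.56 ± 0.00981 above TA plates 37-51 and 0.27 below TA plates 1-20 (difference −0.27 ± 0.0193). Read as a share of the distance between the medians of TA plates 21-28 and 1-20, the median of TA plates 29-36 had come 62.1% of the way in replicate 1 and 61.4% in replicate 2.

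**Figure D1:**
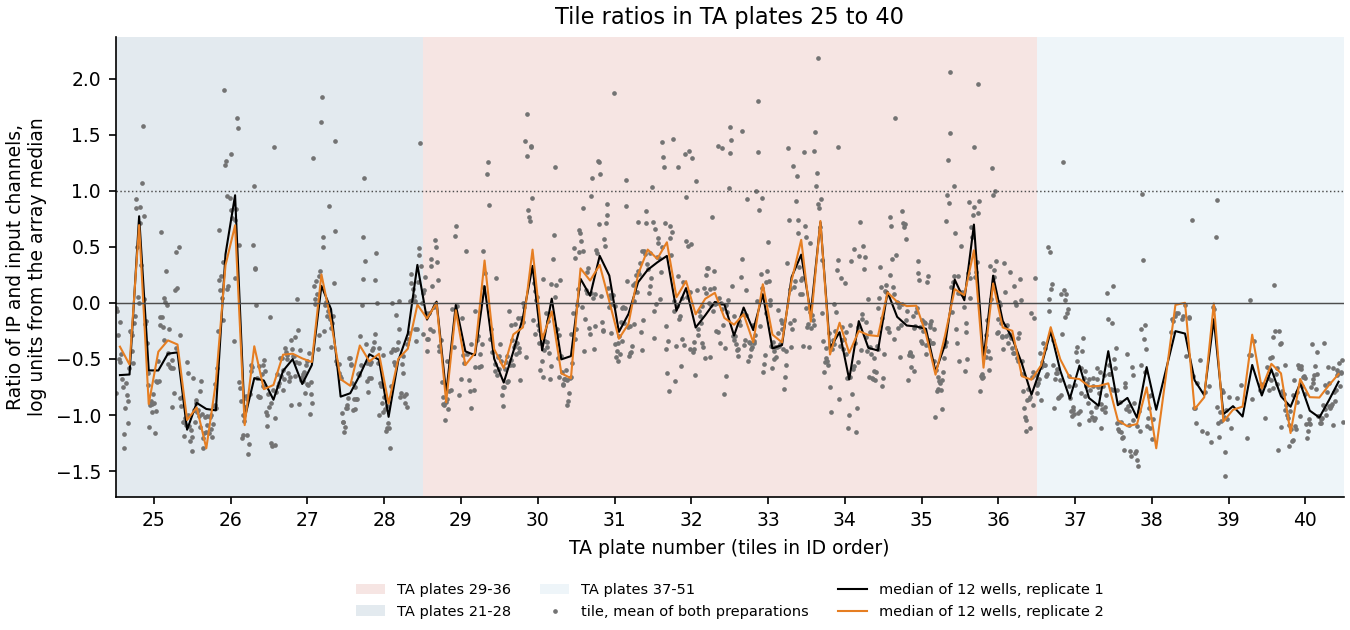
Centred log ratios of tiles in TA plates 25 to 40 in ID order (x axis, plate number; y axis, log units from the array median). Grey points are tile means of both preparations, lines are medians of rows of 12 wells in replicate 1 (black) and replicate 2 (orange), the dotted line marks the cutoff of 1 log unit for high tiles, and shading marks the stretches. The row medians of plates 29 to 36 swing around the array median, with the highest at TA34B, while those of plates 37 to 40 stay at or below it.

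Within the stretch the level was not flat. Plate medians in replicates 1 and 2 were −0.36 and −0.31 in plate 29 and −0.41 and −0.31 in plate 30. They were 0.13 and 0.12 in plate 31, 0.01 and 0.06 in plate 32, and −0.13 and −0.12 in plate 33. They were −0.28 and −0.25 in plate 34, −0.19 and −0.10 in plate 35, and −0.25 and −0.20 in plate 36. The first 2 plates were thus the lowest, plate 31 was the highest in both replicates, and the plates after it lay lower again. Plates 29-30 had a median tile at −0.34 ± 0.0424, plates 31-33 at 0.01 ± 0.0586 and plates 34-36 at −0.22 ± 0.0560 (SD, n = 2), and these divisions were drawn after the values were seen. Plates 31-33 had come 80.1% and 88.2% of the way to TA plates 1-20 in replicates 1 and 2, plates 34-36 50.2% and 53.9%, and plates 29-30 35.4% and 34.4%.

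The plates just inside the borders were close to the cutoff at one end and clear of it at the other. Plate 29 had medians of −0.36 and −0.31 in replicates 1 and 2, and plate 28, just outside, had −0.51 and −0.47. Plate 36 had −0.25 and −0.20, and plate 37, just outside, had −0.72 and −0.65. The cutoff of −0.4 log units separated the plates on the mean of replicates only. In replicate 1 plate 30, at −0.407, lay below it, and in replicate 2 plate 48 of TA 37-51, at −0.372, lay above it. All 8 plates had a higher median than any plate of TA 21-28 or TA 37-51 on the mean, which follows from how the plates were chosen. The replicates, from whose ratios the plates were chosen, each showed the same order. The plate medians of TA 1-20 ran from −0.17 to 0.34, and 4 of the 8 plates (31, 32, 33 and 35) fell inside that range. In replicate 1 these were 2 of 8 plates and in replicate 2 they were 6 of 8, so the number of plates at the level of TA 1-20 was not settled by these replicates. The replicate 2 range began with plate 1 at −0.252, the plate of TA 1-20 whose replicates correlated least (r = 0.715). The next lowest there, plate 13 at −0.186, lay above plates 34 and 36 of the stretch, at −0.245 and −0.199, so the count in replicate 2 rests partly on plate 1.

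The spread among tiles of a plate lay in the lower part of the range seen in TA plates 1-20. The interquartile range within a plate was 0.621 log units in plate 30, the narrowest, and 0.767 in plate 33, the widest, with a median of 0.708 over the 8 plates. It ran from 0.445 to 1.18 in TA plates 21-28 (median 0.641), from 0.295 to 0.758 in TA plates 37-51 (median 0.428) and from 0.621 to 1.16 in TA plates 1-20 (median 0.837). All 8 plates lay inside the range of TA 1-20, whose lower end was plate 8, at 0.6207 against 0.6210 in plate 30. The next narrowest plate of TA 1-20, plate 20 at 0.700, was wider than plates 30, 31 and 35 (0.621, 0.662 and 0.637). That all 8 plates lay inside the range thus rests on plate 8. Calculated in each replicate and then averaged, the median spread of the 8 plates was 0.850 ± 0.0627 times that of TA plates 1-20 (SD, n = 2). The 8 plates differed little in spread, whereas their medians ran between −0.36 in plate 30 and 0.13 in plate 31.

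**Figure D2:**
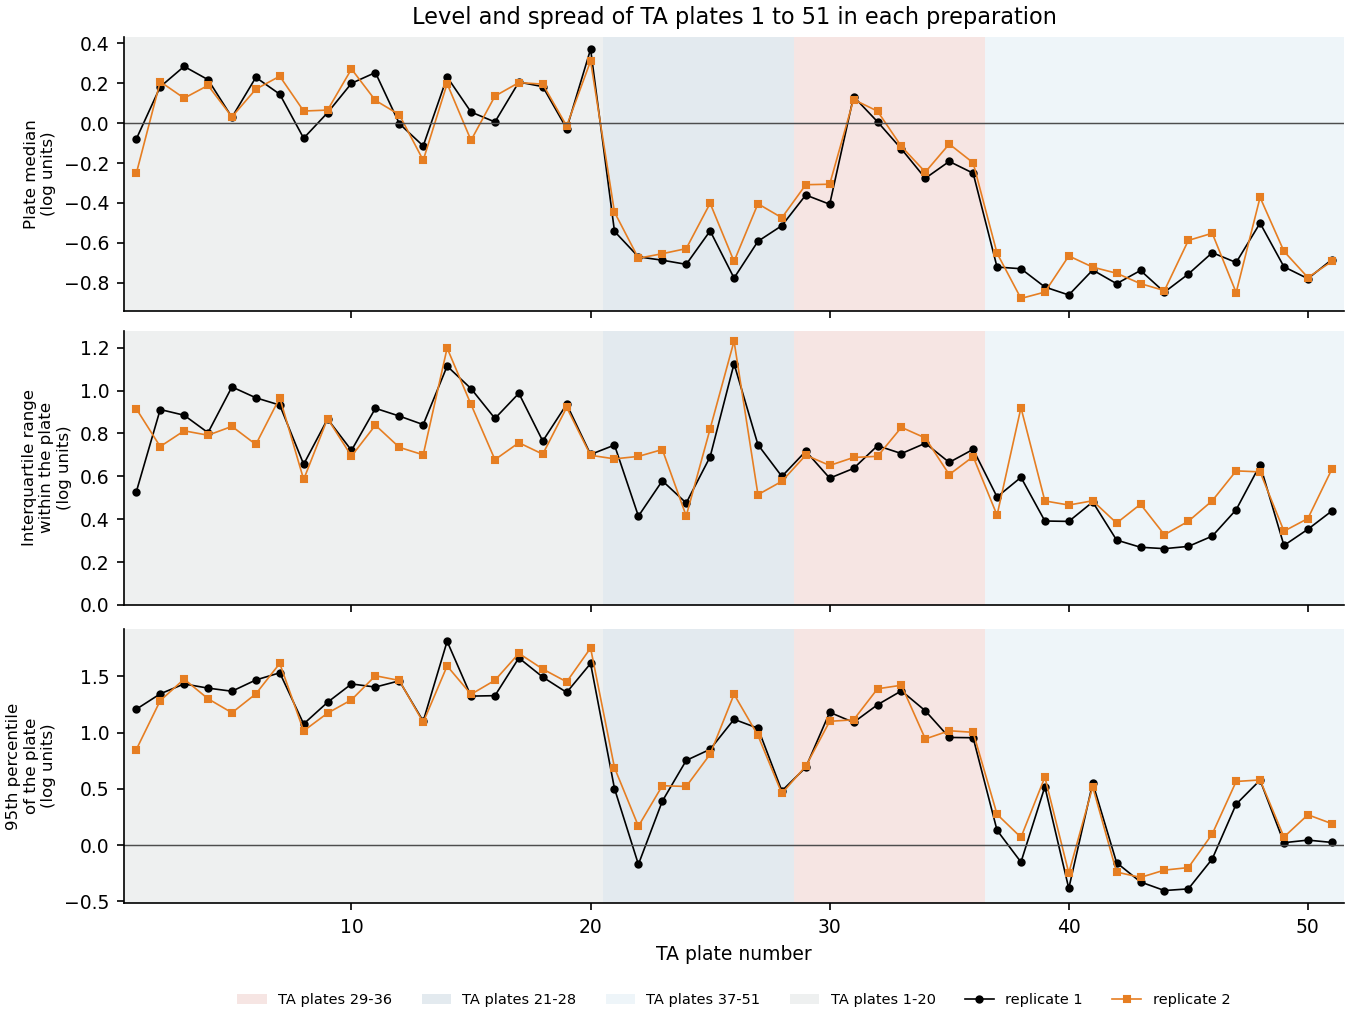
Median (top), interquartile range (middle) and 95th percentile (bottom) of the tiles in each of TA plates 1 to 51, in log units, against plate number. Black circles are replicate 1 and orange squares replicate 2, and shading marks the stretches. The medians of plates 29 to 36 lie above those of both low stretches, peak at plate 31 and drop at plate 37, while their interquartile ranges stay between 0.591 and 0.829 in the single replicates.

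The 95th percentile of a plate was lowest in plate 29, at 0.70, and highest in plate 33, at 1.40. It exceeded that of every plate of TA 37-51 in all 8 plates, and that of every plate of TA 21-28 in plates 32 and 33. That count rests on plate 26, at 1.23, and without it 5 of the 8 plates (30 to 34) exceeded every plate of TA 21-28. In replicate 1 alone plates 30, 32, 33 and 34 exceeded every plate of TA 21-28, and in replicate 2 alone plates 32 and 33 did. On the mean and in replicate 1 the 95th percentile lay inside the range of TA plates 1-20 in 5 of the 8 plates. It lay below that range in plates 29, 35 and 36. In replicate 2 it lay inside the range in 7 of 8 plates and below it only in plate 29. The 5th percentile was lowest in plate 36, at −0.94, and highest in plate 31, at −0.48. On the mean it lay above every plate of TA 21-28 in all 8 plates and above every plate of TA 37-51 in 7 of 8. In replicate 2 alone these were 7 of 8 and 3 of 8, with plate 29 at −0.97 below plate 21 at −0.90.

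Percentiles over all tiles of a stretch showed how the stretches differed in shape. The difference of TA plates 29-36 minus TA plates 21-28 was 0.42 ± 0.108 at the 5th percentile, 0.41 ± 0.0101 at the 25th, 0.44 ± 0.0404 at the median, 0.47 ± 0.0468 at the 75th and 0.38 ± 0.0620 at the 95th (mean and SD of 2 replicates). The distribution was thus displaced by much the same amount from end to end. Minus TA plates 37-51, the difference was 0.39 ± 0.0815 at the 5th percentile, 0.56 ± 0.00981 at the median, 0.76 ± 0.0300 at the 75th and 1.09 ± 0.135 at the 95th. Here the upper end of the distribution differed most, so that the tiles of TA plates 37-51 were not only lower but also closer together. Minus TA plates 1-20, the difference was −0.20 ± 0.000837 at the 5th percentile, −0.27 ± 0.0193 at the median, −0.36 ± 0.0626 at the 75th and −0.24 ± 0.0148 at the 95th.

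**Figure D3:**
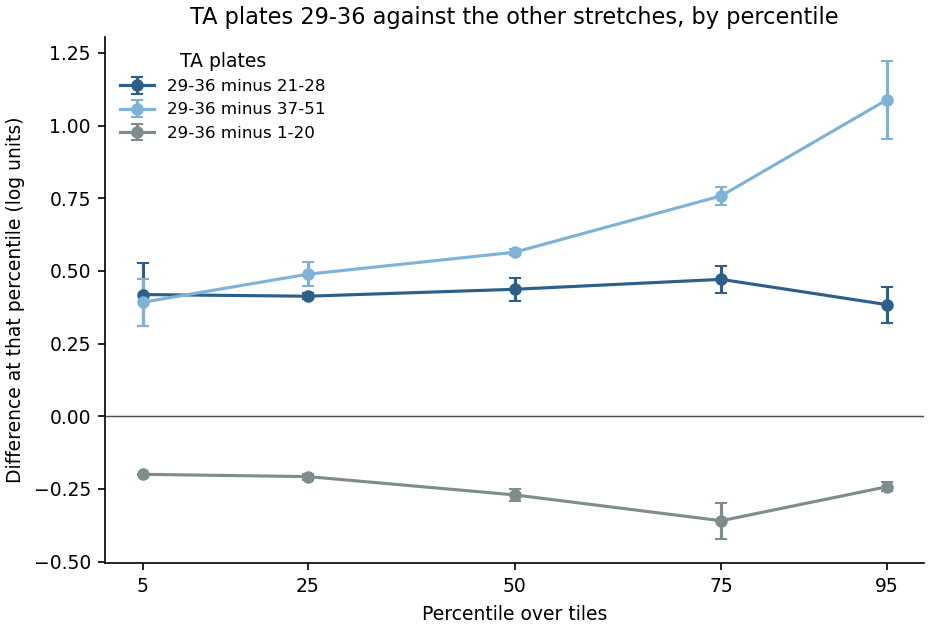
Difference in log units of TA plates 29-36 minus TA plates 21-28 (dark blue), minus TA plates 37-51 (light blue) and minus TA plates 1-20 (grey) at the 5th, 25th, 50th, 75th and 95th percentile over tiles. Points are means of the 2 replicates and bars their SD. The dark blue line stays between 0.38 and 0.47, the light blue line reaches 1.09 at the 95th percentile, and the grey line stays below 0.

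Tiles were also called above or below the array median by limma, a linear model with a variance shared across tiles (adjusted p under 0.05 over all 21707 tiles). In TA plates 29-36, 176 tiles (23.6%) were called above and 297 (39.8%) below the median, against 33.3% above and 30.9% below over the whole array. These calls rest on the ratios that chose the plates, so nothing is read from them beyond the counts. TA plates 21-28 had 76 tiles (10.7%) called above and 507 (71.1%) below. TA plates 37-51 had 46 (3.40%) above and 1181 (87.4%) below, and TA plates 1-20 had 756 (39.5%) above and 394 (20.6%) below. Plate 31 of the stretch had the most tiles called above, 35, and the fewest called below, 15. Plates 29 and 30 had the smallest shares called above, 16.2% of 74 and 14.6% of 96 tiles, and the largest called below, 56.8% and 56.3%.

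A tile was called high where the mean of its replicates was at least 1 log unit above the array median. TA plates 29-36 held 52 high tiles (6.97%), against 10.4% over the whole array. There were 24 (3.37%) in TA plates 21-28, 11 (0.814%) in TA plates 37-51 and 259 (13.5%) in TA plates 1-20. Of the 52, 45 were at least 1 log unit above the median in both replicates. Over the whole array this held for 1858 of 2257 high tiles, or 8.56% of all tiles. Replicate 1 alone gave 52 high tiles in TA plates 29-36 and replicate 2 alone gave 57. Plates 29 to 36 held 2, 6, 7, 12, 11, 6, 5 and 3 high tiles in order, so the most lay in plates 32 and 33, just after the plate with the highest median. Low tiles, at least 1 log unit below the median, numbered 8 (1.07%) against 3.07% over the array. TA plates 21-28 had 105 (14.7%), TA plates 37-51 had 222 (16.4%) and TA plates 1-20 had 9 (0.471%). Of the 8 low tiles of TA plates 29-36, 4 passed the cutoff in both replicates, and 4 lay in plate 36, next to the second low stretch. Over the whole array 321 of 667 low tiles passed it in both, or 1.48% of all tiles.

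**Figure D4:**
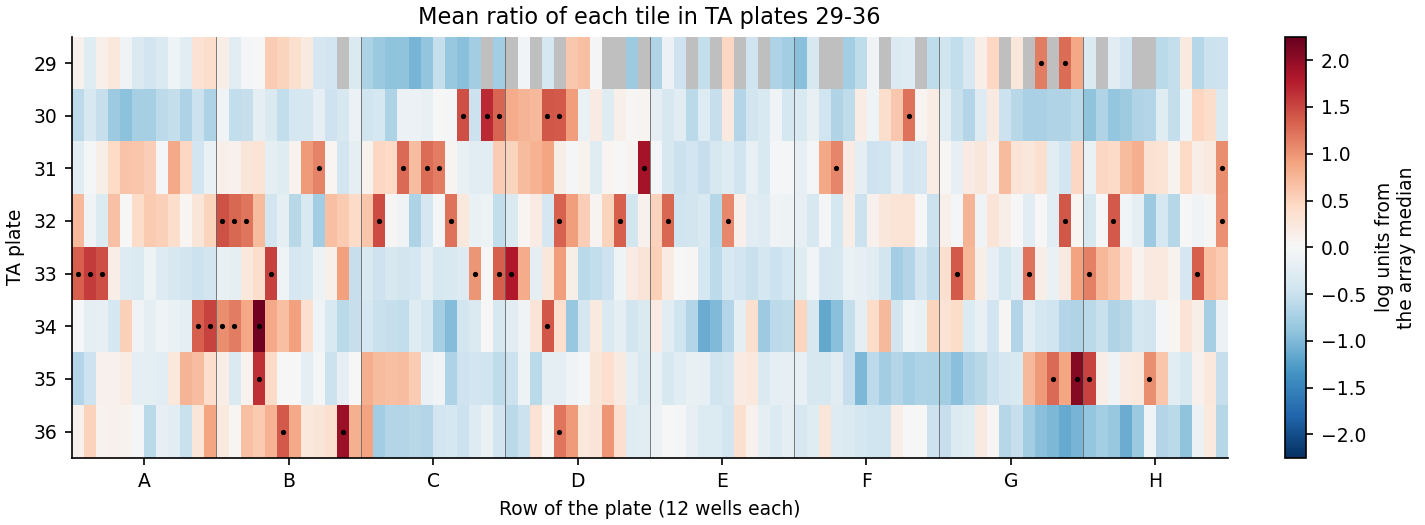
Mean centred log ratio of every tile of TA plates 29-36 (colour, in log units from the array median; grey, wells with no value or not in the set), with plates 29 to 36 down the page and the wells of rows A to H across it. Dots mark the 52 high tiles. They fall in 38 runs, plate 29 holds 2 of the high tiles and plate 32 holds 12, and rows G and H of plate 36 are blue.

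High tiles came singly and in short runs of up to 4. They formed 38 runs of consecutive tiles, or 5.09 runs per 100 tiles, with a mean length of 1.37 tiles. TA plates 21-28 had 17 runs (2.38 per 100 tiles, mean length 1.41), TA plates 37-51 had 8 (0.592 per 100, mean 1.38) and TA plates 1-20 had 178 (9.31 per 100, mean 1.46). Runs were thus more frequent in TA plates 29-36 than in the low stretches and fewer than in TA plates 1-20, while the mean lengths at this cutoff were between 1.37 and 1.46 tiles. At a cutoff of 0.5 log units the mean length was 2.27 tiles in TA plates 29-36, against 1.92 in TA plates 21-28, 1.60 in TA plates 37-51 and 2.24 in TA plates 1-20. Replicate 1 alone gave 36 runs in TA plates 29-36 and replicate 2 gave 41. Of the 38 runs, 29 were single tiles (76.3%), 9 had 2 or more tiles and 3 had 3 or more. Single tiles made up 70.6% of the runs in TA plates 21-28, 75% in TA plates 37-51 and 62.4% in TA plates 1-20. The runs of 2 or more in TA plates 29-36 held 23 of the 52 high tiles (44.2%), against 50%, 45.5% and 57.1% in the same order.

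The longest runs had 4 tiles each. The run from TA32H12 to TA33A03 crossed a plate border. Its tiles stood at 1.05 and 0.9996 log units in replicates 1 and 2 (TA32H12), 1.41 and 1.26 (TA33A01), 1.52 and 1.62 (TA33A02) and 1.57 and 1.33 (TA33A03). The tile before it had a mean of 0.03 and the tile after it 0.15, so the values changed by about 1 log unit or more within a single tile on each side. The other run of 4 tiles, TA34A11 to TA34B02, was less even between replicates. Its tiles stood at 1.57 and 1.13 (TA34A11), 1.64 and 1.41 (TA34A12), 1.15 and 0.93 (TA34B01) and 1.34 and 0.97 (TA34B02). All 4 passed 1 log unit in replicate 1 and only TA34A11 and TA34A12 did so in replicate 2. It began abruptly, after a tile at −0.20, and belonged to a longer raised stretch of 10 tiles called above the median, TA34A11 to TA34B08. The run of 3 tiles at TA32B01 to TA32B03 stood at 1.24 and 1.62, 1.32 and 1.28, and 1.23 and 1.19 in replicates 1 and 2.

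The highest tile of the stretch, TA34B04, lay in that raised stretch of plate 34, at 2.16 in replicate 1 and 2.21 in replicate 2. The next were TA35G12 at 2.29 and 1.83, TA36B11 at 2.20 and 1.70, TA31D12 at 1.81 and 1.94, and TA33D01 at 1.75 and 1.85. TA36B11 had an SD of 0.350 between replicates and TA35G12 one of 0.327, so the order of these tiles among themselves was not settled. TA31D12 stood alone, with neighbours at 0.07 and −0.03, whereas TA33D01 and TA35G12 each lay beside another high tile. The 5 lowest tiles lay in plates 34 and 36. This rests on a small difference, since TA29C05 in plate 29 (−0.72 and −1.36 in replicates 1 and 2) had a mean of −1.042, against −1.044 in TA36G12. TA34F03 stood at −1.12 and −1.18 in replicates 1 and 2, TA36G11 at −1.09 and −1.20, TA34E05 at −1.15 and −1.09, TA36H04 at −1.31 and −0.91, and TA36G12 at −1.02 and −1.07. Those of plate 36 belonged to the last rows before plate 37.

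The tiles beside high runs mostly stood above the array median. The 76 places beside the 38 runs had a median of 0.33 log units, against 0.34 in TA plates 21-28, −0.05 in TA plates 37-51 and 0.37 in TA plates 1-20. A tile between neighbouring runs was counted for each of them. A flanking tile of 0.5 log units or more stood on both sides of 5 runs, on 1 side of 21 and on neither side of 12. Steps of at least 1 log unit between neighbouring tiles numbered 51 of 745 in TA plates 29-36 (6.85%), against 4.21% in TA plates 21-28, 1.85% in TA plates 37-51 and 11.7% in TA plates 1-20. Of the 51 steps, 41 reached 1 log unit in both replicates. The largest step led up 2.17 log units, with TA30C10 at −0.49 in both replicates and TA30C11 at 1.70 and 1.66.

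Stretches without any high tile, and stretches below the median, were short compared with those of the low plates. The longest stretch with no high tile inside TA plates 29-36 had 71 tiles, TA34D05 to TA35B03. In TA plates 21-28, 37-51 and 1-20 the longest had 150, 471 and 86 tiles. Such stretches averaged 17.8 tiles in TA plates 29-36, against 38.3, 149 and 9.29 in the same order. All were counted within their own set of plates, and a set with more tiles leaves room for a longer one. The first high run, TA29G09 and TA29G11 with no tile of the set between them, came after 62 tiles, at 0.94 and 1.36 and at 1.25 and 1.26 in replicates 1 and 2. The last, the single tile TA36D05 at 1.22 and 1.18, was followed by 55 tiles to the end of plate 36. Rows TA37A and TA37B beyond the border held no high tile either, so these 55 tiles are part of a longer stretch. Runs of tiles with a mean below the array median averaged 5.31 tiles (longest 35, TA29H10 to TA30C08). They averaged 13.2 tiles in TA plates 21-28 (longest 97), 31.7 in TA plates 37-51 (longest 237) and 3.21 in TA plates 1-20 (longest 26). Tiles that limma called below the median formed 98 runs of 3.03 tiles on average, against 10.4 in TA plates 21-28, 17.9 in TA plates 37-51 and 2.03 in TA plates 1-20.

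The borders with the low stretches differed from each other. At the second border the level changed inside plate 36. The best single step in plates 33 to 40, placed by least absolute deviation from a median on each side, fell between TA36G05 and TA36G06 in both replicates, 19 tiles before the end of the plate, and the medians after it were lower by 0.60 log units in replicate 1 (after minus before −0.60) and by 0.54 in replicate 2 (−0.54). Row TA36G had medians of −0.54 and −0.65 in replicates 1 and 2 and row TA36H −0.82 and −0.68, so the last row was already as low as row TA37A beyond the border, at −0.57 and −0.56. The last tile, TA36H12, stood at −0.50 and −0.78, and TA37A01, the first of plate 37, at −0.81 and −0.65.

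At the first border there was no single place of change. The best step in plates 25 to 32 fell at TA30C04 in replicate 1 and at TA30H10 in replicate 2, 101 and 167 tiles inside the stretch, with medians after the step higher by 0.53 and 0.54. The rows on either side of the plate border went against the plate medians. Row TA29A had medians of −0.15 and −0.14 in replicates 1 and 2, against 0.34 and −0.02 in row TA28H. TA28H was the highest row of plate 28, whose other rows lay between −0.96 and −0.34 on the mean of replicates. By groups of 4 rows plate 29 was higher than plate 28 by 0.14 and by whole plates by 0.16. The tiles at the border, TA29A01 at 0.35 and −0.16 and TA28H12 at 0.19 and −0.19, changed side of the median between replicates. Row TA29C stood at −0.81 and −0.89 and row TA30D at 0.33 and 0.47, which were the lowest and the highest of the 16 rows of plates 29 and 30. Of these rows 2 had a median above 0 and 5 one of −0.5 or less, so most lay in between.

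Of the 64 rows of TA plates 29-36, 21 had a median above 0, all 21 of them in both replicates, and 9 had a median of −0.5 or less. In TA plates 21-28 these were 8 and 40 of 63 rows, in TA plates 37-51 2 and 99 of 119, and in TA plates 1-20 101 and 3 of 160. In plates 31-33 alone 13 of 24 rows lay above 0 and none of the 24 at −0.5 or less. The highest row was TA34B at 0.72 and 0.73 in replicates 1 and 2. Row TA36B, at 0.70 and 0.47, had all 12 tiles above the array median although it lay in the last plate before the second low stretch.

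Neighbouring tiles resembled each other less than in TA plates 21-28 and more than in TA plates 1-20. The Pearson r across pairs of adjacent tiles was 0.596 ± 0.0118 in TA plates 29-36 (mean and SD of 2 replicates, 745 pairs that share arrays and overlap in tiles). It was 0.711 ± 0.0138 in TA plates 21-28, 0.611 ± 0.0370 in TA plates 37-51, within its SD of the value in TA plates 29-36, and 0.501 in TA plates 1-20. At 2 tiles apart it was 0.397 in TA plates 29-36, against 0.569, 0.451 and 0.195 in TA plates 21-28, 37-51 and 1-20, and at 10 tiles apart it was 0.0565, against 0.147, 0.110 and 0.0338 in the same order. In TA plates 29-36 likeness thus extended beyond the adjacent tile but had mostly gone at 10 tiles. Taking replicate 1 of a tile and replicate 2 of its neighbour, which removes noise shared within an array, gave 0.571 in TA plates 29-36.

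**Figure D5:**
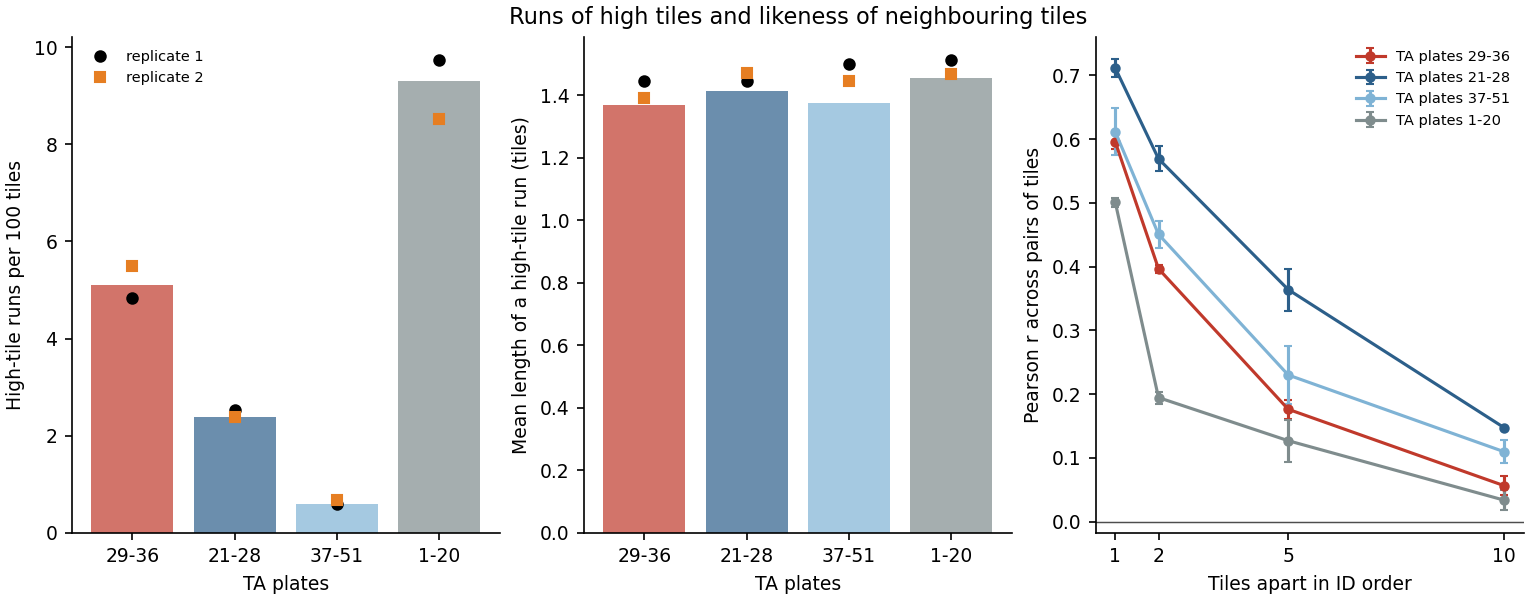
High-tile runs per 100 tiles (left) and their mean length in tiles (middle) in TA plates 29-36, 21-28, 37-51 and 1-20, with bars for runs on the mean of both preparations, circles for replicate 1 and squares for replicate 2, and Pearson r across pairs of tiles 1, 2, 5 and 10 apart in ID order (right; points, mean of 2 replicates; bars, SD). Run frequency was 5.09 per 100 tiles in plates 29-36, with mean lengths of 1.37 to 1.46 tiles in all 4 stretches, and r was lower at larger distances in each.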

How the data were processed

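The table analysed was the authors' deposited value table of 21800 rows with 1 column per array. Its deposited values were treated as scores on a log scale. They are log ratios of the 2 channels, and no label or header states their base, direction, normalization or software. Rows with other IDs (39) and tiles without a value (54) were left out. Each column's median over tiles, −0.737 (replicate 1) or −0.925 (replicate 2), was subtracted. Of 768 wells in TA plates 29-36, 22 had no tile with a value, all in plate 29.

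Levels, spreads and correlations were computed in each replicate and given as mean and SD, in Python 3.11.15 with numpy 2.4.6 and pandas 2.3.3. Runs are consecutive tiles in ID order, and wells with no value were skipped. Calls came from R 4.3.3 and limma 3.58.1, by lmFit (intercept only) and eBayes, two-sided, at a Benjamini-Hochberg adjusted p of 0.05 over 21707 tiles. With 1 residual degree of freedom, the standard error rests almost wholly on the pooled SD of 0.184, and the smallest mean called was 0.281 log units from the median. The fit was also run on simulated independent tiles with variances drawn from its own estimate. That checks the code only, since neighbouring tiles of the real data resembled each other. The labels do not say whether the preparations came from separate cultures, so the spread may be technical, and the number of arrays limits the precision.

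Tiles named were the 5 highest and 5 lowest, the 3 longest high runs, the first and last high run and the tiles at plate borders. TA30C10, TA30C11 and the rows named were chosen after their values were seen. The members, stretches and cutoffs were chosen with earlier results of these data known. No tile was assigned to a gene, and no sequence is given.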

Additional observations from a re-analysis of the deposited data

How the results depend on the processing

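Of 67 alternatives over 15 results, other than leaving out a replicate, 30 left the value within 1 SD between replicates (for a count, within 1.5 times) and 37 moved it further. The 22 that left out a replicate are not counted, since for the 18 of them on a value with an SD a single replicate cannot be more than 1 SD away when n = 2. The sign differed from the value reported in 6, namely the level centred on the mode or on TA tiles and both border differences at both wider widths. Values are given for TA plates 29-36 unless another stretch is named, and the cause of each move was not tested unless the setting itself sets it.

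The level of −0.15 (−0.17 and −0.13 in the single replicates) was −0.98 as deposited, 0.12 centred on the mode, 0.013 centred on TA tiles and −0.11 in plates 30 to 35. Minus TA plates 1-20 it was −0.23 in plates 30 to 35, −0.14 against all TA plates outside 21-51 and −0.22 without plates 29 and 30 (chosen after seeing the data), and minus TA plates 37-51 it was 0.60 in plates 30 to 35. The spread within plates of 0.702 was 0.688 in plates 30 to 35, and its ratio to TA plates 1-20 was 0.924 by SD and 0.960 against all TA plates outside 21-51. The 52 high tiles became 4 as deposited, 84 centred on the mode, 127, 82 and 11 at cutoffs of 0.5, 0.75 and 1.5 log units, and 176 by limma calls. The 38 runs became 4 as deposited, 10 at 1.5 log units and 71 by limma calls. The neighbour r of 0.596 was 0.571 across preparations and 0.571 with plate medians taken off.

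Plate 29 minus plate 28 was −0.31 by the rows at the border, 0.14 by groups of 4 rows and 0.16 by whole plates, and plate 36 minus plate 37 was −0.19, 0.17 and 0.46, so the sign at both borders depends on the width compared. Calls above the median, 7227 over the array and 176 in TA plates 29-36, became 2756 and 63 against a minimum of 1.5-fold (if the log base is 2) and 1534 and 40 as deposited, and those in TA plates 29-36 were 279 centred on the mode. Calls below, 6716 and 297, became 1110 and 20 against 1.5-fold, 16371 and 616 as deposited, and 3167 and 113 centred on the mode.

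No paired analysis was possible because the ratio already pairs IP and input within a preparation and there is 1 group.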

Other observations

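High tiles of TA plates 29-36 were unevenly placed among the rows of a plate, as seen in the map of tile means. Rows E and F held 4 of 184 tiles as high (2.17%, and 4 in each replicate), against 48 of 562 (8.54%) in the other rows. The median tile was −0.31 ± 0.00827 in rows E and F and −0.07 ± 0.0394 in the other rows (SD, n = 2). In TA plates 21-28 the share in rows E and F was 5.06%, against 2.80% in the other rows, in TA plates 37-51 it was 0 of 319 tiles against 1.07%, and in TA plates 1-20 it was 12.9% against 13.7%. The rows were picked after their values were seen, so no test is given.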
